A study of Mus musculus with 6 samples.

Results

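The genes that copy DNA and divide the cell are described here in mouse alveolar macrophages exposed to bacterial lipopolysaccharide (LPS) with or without vitamin D3 (VD3). The set holds 44 genes, taken by symbol from the count table: 29 genes of DNA replication, 5 cyclins and kinases of G1 and the G1/S transition, and 10 genes of G2 and mitosis. All 44 were among the 23413 genes listed, and all 44 passed the filter on low counts, which left 10724 genes in the tests. Alveolar macrophages, the phagocytes that live in the airspaces of the lung, came from the lavage of wild-type (WT) mice, of an age and strain that the labels do not give. The LPS + VD3 group received 100 ng/mL LPS and 50 nM VD3 for 4 h in culture, and the LPS group 100 ng/mL LPS alone for 4 h. The control group has no agent in its labels, and its time in culture is not given. RNA-seq gave 2 libraries per group. The labels do not say whether replicates were separate animals or separate cultures, so each p-value below reflects a spread among libraries that may be technical.

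Total counts lay between 5022314 and 5465223 per library. The known genes of alveolar macrophages were present in all 6 libraries: the 17 of 21 listed markers found in the table, all of them tested, summed to 25298 to 27820 CPM (read counts scaled by the TMM-adjusted library size) in LPS + VD3, 23958 to 24057 CPM in LPS and 21783 to 22596 CPM in control. Single markers of these 17 moved in both directions. In LPS against control 8 were lower and 4 higher (edgeR, adjusted p under 0.05), against 16.2% and 15.7% of all genes tested. In LPS + VD3 against control 7 were lower and 3 higher, against 17.3% and 17.7%. The erythroid marker Hba-a1, the surfactant gene Sftpc, the T cell gene Cd3e, the neutrophil genes Mpo and S100a9 and the collagen gene Col3a1 had 0 counts in every library. Other markers of the same lists had counts. Those at 0 in every library were 4 of 5 erythroid, 4 of 10 neutrophil and 3 of 12 lymphocyte markers in the table. Of lung epithelium markers 2 of 11 were at 0, and of stroma and endothelium markers 2 of 9. The neutrophil markers summed to at most 37.5 CPM and the lymphocyte markers to at most 39.9 CPM in any library. The replicates of a group were not equally close. Pearson's r of log2 CPM over the genes tested was 0.981 between the LPS + VD3 libraries, 0.969 between the LPS libraries and 0.991 between the control libraries. LPS 1 carries a title from another series of numbers than the other libraries. It differed from LPS 2 along transcript GC content, with a Spearman's rho of 0.665 over all genes and 0.629 over the 44 genes. Values below are therefore also given without each of these libraries where they differ.

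A cell copies its DNA in S phase and divides in M phase. In G1, Cdc6 and Cdt1 load the MCM helicase onto replication origins. Cdc45 and the GINS complex then turn it into the active helicase, behind which DNA polymerases copy both strands while held by the sliding clamp Pcna. Cyclins of the D and E types with Cdk4 and Cdk2 release E2F transcription factors, which switch on many of these genes, and B-type cyclins with Cdk1 drive mitosis. Alveolar macrophages are known to renew themselves by dividing in the lung.

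Promoters of these genes carry short motifs that cell cycle factors are known to use. They are described here without a test of their part in the changes below. RefSeq promoters of the GRCm38.p6 build, from 250 bases before to 50 bases after a transcript start, were matched for 35 of the 44 genes, in 40 windows. In 30 of the 40 the first bases after the start were found in a GENCODE transcript of the gene. The place of the start is less certain in the others. An E2F motif, searched on both strands as TTTGGCGC, TTTCCCGC, TTTCGCGC or TTTGCCGC, was found in 13 of the 40 windows (32.5%), against 2.26% of all 32851 promoters of that length. It was found in 11 of 29 windows of DNA replication genes and in 1 of 8 of G2 and mitosis genes, that of Cdk1. The cell cycle homology region (CHR), searched as TTTGAA on both strands, stood in 6 of the 8 windows of G2 and mitosis genes and in 3 of 29 of DNA replication genes, against 17.9% of all promoters. The letters CCAAT, on either strand, were in all 8 windows of G2 and mitosis genes and in 37.4% of all promoters, and both CHR and CCAAT were in 6 of the 8, against 6.95% of all. Genes not called in LPS against control, given below, had 7 windows, with the E2F motif in 2 (28.6%), CHR in 1 and CCAAT in 2. Whether motifs differ between called genes and these was not tested. A match describes the letters in these windows and is not evidence of binding. The next lines print 250 bases before and 30 bases after the start for Mcm7 (chr5:138171854-138172133), Mcm6 (chr1:128359676-128359955), Top2a (chr11:99024160-99024439) and Cdk1 (chr10:69352883-69353162), all read along the minus strand in the direction of transcription. Capitals mark the E2F motif in Mcm7 and Mcm6, where 2 matches on opposite strands overlap in Mcm6, and the CHR and CCAAT motifs in Top2a and Cdk1, with ATTGG and TTCAAA where the motif lies on the other strand. Other matches are left in lower case.
Mcm7: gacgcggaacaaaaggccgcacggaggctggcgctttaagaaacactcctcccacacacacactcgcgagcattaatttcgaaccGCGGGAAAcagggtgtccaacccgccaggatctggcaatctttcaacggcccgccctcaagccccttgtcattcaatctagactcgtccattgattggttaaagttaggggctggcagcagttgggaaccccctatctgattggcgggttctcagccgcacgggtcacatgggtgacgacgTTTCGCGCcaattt
Mcm6: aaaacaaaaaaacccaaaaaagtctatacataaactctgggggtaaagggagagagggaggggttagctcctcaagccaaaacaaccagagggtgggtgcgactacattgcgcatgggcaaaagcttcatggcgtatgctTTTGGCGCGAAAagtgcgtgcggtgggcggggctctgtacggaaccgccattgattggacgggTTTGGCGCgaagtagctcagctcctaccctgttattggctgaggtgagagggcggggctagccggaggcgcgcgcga
Top2a: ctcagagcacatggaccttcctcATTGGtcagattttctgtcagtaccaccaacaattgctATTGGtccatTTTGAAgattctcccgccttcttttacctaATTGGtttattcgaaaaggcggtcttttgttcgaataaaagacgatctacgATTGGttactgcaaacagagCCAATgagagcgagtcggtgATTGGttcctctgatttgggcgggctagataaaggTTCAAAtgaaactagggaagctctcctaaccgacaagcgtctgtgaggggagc
Cdk1: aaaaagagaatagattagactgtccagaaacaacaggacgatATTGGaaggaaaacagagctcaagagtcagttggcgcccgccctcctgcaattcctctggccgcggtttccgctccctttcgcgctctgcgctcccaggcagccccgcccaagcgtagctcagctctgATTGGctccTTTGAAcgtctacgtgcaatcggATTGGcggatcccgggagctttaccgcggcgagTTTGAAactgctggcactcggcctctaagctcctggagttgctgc

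The comparison of LPS with control asked how these genes differed between the LPS and control groups. As the control's time in culture is not given, LPS and time in culture or handling cannot be told apart. Words such as fell, rose, lowered and after LPS give the direction of the difference from control. By edgeR's quasi-likelihood test with Benjamini-Hochberg adjustment over all genes tested, 36 of the 44 were lower after LPS at adjusted p under 0.05 and none was higher, while 31.8% of all genes were called, 16.2% lower and 15.7% higher. At 2-fold or more, 30 were lower, against 9.99% of all genes. None was higher at unadjusted p under 0.05 or with DESeq2 either. The median log2 fold change was -1.30 for the 44 genes and 0.0062 for all genes. In 42 of 44 genes both LPS libraries lay below both control libraries, as in 33.6% of all genes. Summed over the 44 genes, expression was 1651 and 1686 CPM in the LPS libraries, against 3394 and 3404 CPM in the control libraries, which is 0.156% and 0.157% of the counts in LPS against 0.394% and 0.389% in control. In such bulk samples, fewer dividing cells and less of these RNAs per cell cannot be told apart. Without LPS 1 the median log2 fold change of the 44 genes was -1.39, against -0.040 over all genes. Without LPS 2 it was -1.28, against -0.013.

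Genes listed as markers of other cells differed between LPS and control in both directions. Of 11 lung epithelium markers only Cdh1 had enough counts to be tested, and the list summed to 41.2 and 53.7 CPM in LPS + VD3, 35.9 and 39.2 CPM in LPS and 223 and 241 CPM in control, with Sftpc and Scgb3a2 at 0. Of the 12 lymphocyte markers present, 2 were tested, and the list, mostly Cd2, summed to 14.9 and 21.7 CPM in LPS + VD3, 16.2 and 17.6 CPM in LPS and 39.9 and 36.1 CPM in control. The defining lymphocyte genes Cd3e, Nkg7 and Ncr1 had 0 counts. The dendritic cell markers summed to 18.8 and 19.1 CPM in LPS + VD3, 23.2 and 20.03 CPM in LPS and 27.9 and 34.1 CPM in control. Of the 3 tested, Clec9a was lower and Xcr1 higher in LPS than in control, and the median log2 fold change was -0.01. The 10 markers of monocytes and interstitial macrophages summed to 499.5 and 512 CPM in LPS + VD3, 576 and 695 CPM in LPS and 383 and 391 CPM in control. Of the 4 tested, 2 were lower in LPS than in control, Ccr2 among them, and 1, Vcan, was higher. The median log2 fold change of the 4 was -1.62. The 8 eosinophil and mast cell markers, mostly Siglece, summed to 160.0 and 197 CPM in LPS + VD3, 90.9 and 68.8 CPM in LPS and 33.6 and 35.4 CPM in control. Siglece was higher in LPS than in control, while 6 of the 8, the defining genes Epx, Prg2, Ccr3 and Cpa3 among them, had 0 counts. Siglece or Cdh1 alone does not show that eosinophils, mast cells or epithelium were present, so these 2 sums are not measures of such cells. The 9 stroma and endothelium markers summed to 2.93 and 2.19 CPM in LPS + VD3, 6.16 and 8.09 CPM in LPS and 2.57 and 1.60 CPM in control. Of the 2 tested, 1 was higher in LPS than in control, at a log2 fold change of 7.32. The part of such cells in the lower level of the replication and division genes was not tested.

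**Figure D1:**
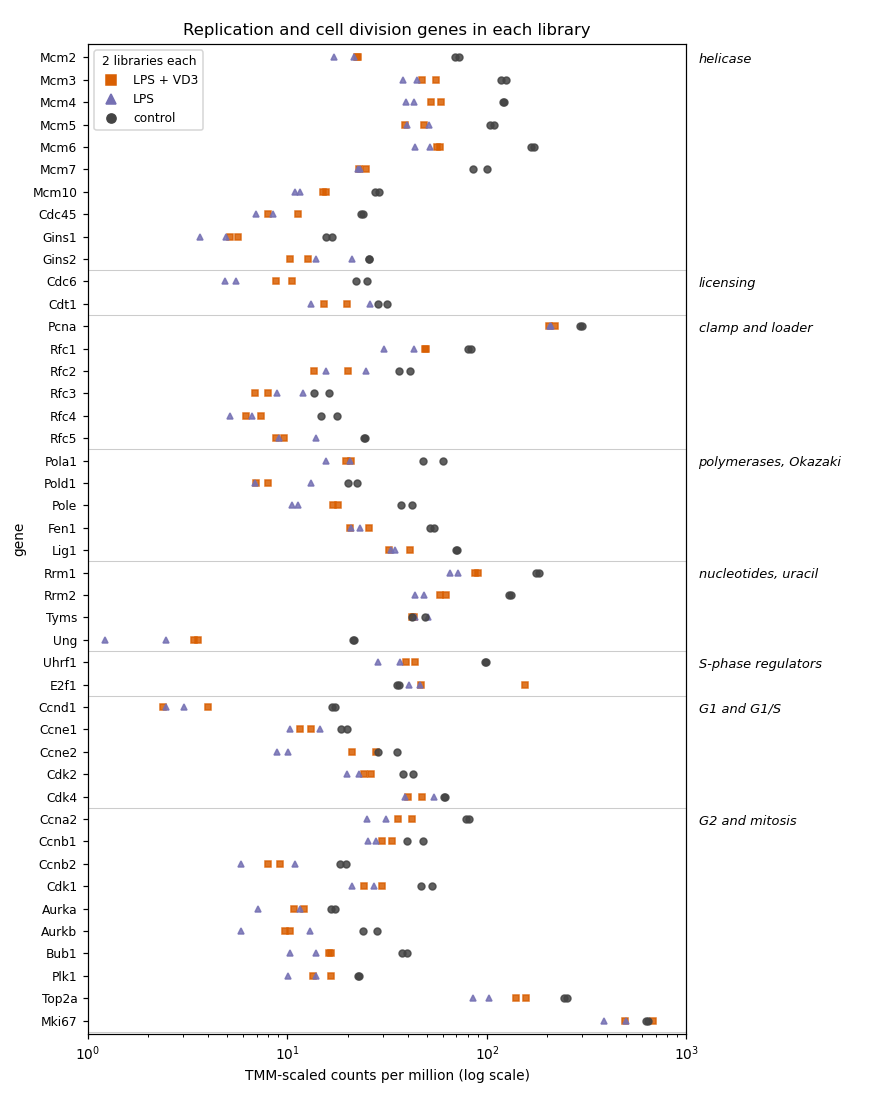
TMM-scaled CPM (log axis) of each of the 44 genes, grouped by role, in the LPS + VD3 libraries (orange squares), LPS libraries (purple triangles) and control libraries (dark circles), 2 libraries each. In 42 genes both LPS libraries lie left of both control libraries; Tyms and E2f1 are the exceptions.

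Of the 10 genes of the replicative helicase, 9 fell after LPS. Mcm7, a subunit of the MCM ring, had 22.8 and 24.7 CPM in LPS + VD3, 23.2 and 22.5 CPM in LPS and 99.7 and 84.9 CPM in control. Both treated groups lay far below control and their libraries overlapped each other. Mcm7 was 4.04-fold lower in LPS than in control (log2 fold change -2.01 ± 0.18 (SE), edgeR adjusted p = 1.56e-05). Mcm6, another ring subunit, had 58.2 and 56.3 CPM in LPS + VD3, 43.5 and 52.0 CPM in LPS and 172 and 167 CPM in control, a log2 fold change after LPS of -1.83 ± 0.16 (adjusted p = 1.67e-05). Mcm2 had 22.2 and 22.5 CPM in LPS + VD3, 21.5 and 17.2 CPM in LPS and 69.4 and 72.6 CPM in control, a log2 fold change after LPS of -1.87 ± 0.18 (adjusted p = 3.53e-05). For both genes the groups did not overlap, and control was the highest. The other subunits Mcm3, Mcm4 and Mcm5, the helicase factor Mcm10, Cdc45 and the GINS subunit Gins1 fell by between 1.23 and 1.91 on the log2 scale. The second GINS subunit in the set, Gins2, was at -0.55 ± 0.24 and did not pass (adjusted p = 0.104). The exons of Gins2 overlap those of Gse1 over 67.3% of their length in the GENCODE annotation, so its count is uncertain.

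The 2 licensing factors differed. Cdc6, the loader of the MCM ring, had 8.79 and 10.5 CPM in LPS + VD3, 5.54 and 4.86 CPM in LPS and 25.2 and 22.0 CPM in control. The 3 groups did not overlap and LPS was the lowest, 4.52-fold below control (log2 fold change -2.18 ± 0.24, edgeR adjusted p = 8.29e-05). Cdt1, its partner in loading, had 19.9 and 15.3 CPM in LPS + VD3, 25.9 and 13.2 CPM in LPS and 31.7 and 28.4 CPM in control. Its LPS libraries lay far apart, both below control, and it did not pass (-0.62 ± 0.29, adjusted p = 0.129).

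Of the clamp and its loader, 5 of 6 genes fell. Pcna had the highest level per transcript length of the 44 genes, 140 ± 7.4 CPM per kb in LPS + VD3, 137 ± 0.32 in LPS and 195 ± 4.2 in control (SD, n = 2 each). It was also the called gene with the smallest change after LPS, at -0.51 ± 0.14 (edgeR adjusted p = 0.0185), a call that was lost without control 1 or control 2. Pcna has processed copies named Pcna-ps1 and Pcna-ps2, and the treatment of reads that match several places is not stated. Rfc1, the large subunit of the clamp loader, had 49.0 and 49.4 CPM in LPS + VD3, 30.4 and 42.9 CPM in LPS and 83.4 and 80.3 CPM in control. Rfc4 had 7.33 and 6.17 CPM in LPS + VD3, 5.13 and 6.68 CPM in LPS and 14.7 and 17.6 CPM in control. Rfc5 had 9.63 and 8.76 CPM in LPS + VD3, 14.0 and 9.10 CPM in LPS and 24.3 and 24.4 CPM in control. In these 3 subunits no treated library reached a control library, and the log2 fold change after LPS was -1.16 ± 0.19 for Rfc1, -1.45 ± 0.26 for Rfc4 and -1.08 ± 0.24 for Rfc5. Rfc2 fell by 0.95 ± 0.26, a call lost without either control library, and Rfc3 did not pass (-0.51 ± 0.24, edgeR adjusted p = 0.138).

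All 5 genes of polymerases and Okazaki fragment joining fell by at least 2-fold. Pole, the catalytic subunit of the leading strand polymerase, had 17.0 and 17.9 CPM in LPS + VD3, 11.3 and 10.5 CPM in LPS and 37.0 and 42.0 CPM in control. Pola1, the catalytic subunit of the polymerase that extends primers, had 20.7 and 19.7 CPM in LPS + VD3, 15.6 and 20.6 CPM in LPS and 47.8 and 60.3 CPM in control. For both, control stood apart from both treated groups. After LPS, Pole was at -1.86 ± 0.20 (edgeR adjusted p = 6.17e-05) and Pola1 at -1.58 ± 0.21 (adjusted p = 0.000273). Fen1, the nuclease that trims Okazaki fragments, had 25.8 and 20.5 CPM in LPS + VD3, 23.0 and 20.8 CPM in LPS and 52.1 and 54.5 CPM in control, but 84.2% of its exon length overlaps Gm10143 or Tmem258, so its count is uncertain. The lagging strand polymerase subunit Pold1 was at -1.08 ± 0.28, a call lost without either control library, and the ligase Lig1 at -1.05 ± 0.18.

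Among genes that supply nucleotides or remove uracil from DNA, 3 of 4 fell and 1 did not pass. Ung, the uracil-DNA glycosylase, had 3.56 and 3.38 CPM in LPS + VD3, 2.46 and 1.21 CPM in LPS and 21.2 and 21.5 CPM in control. It was lowest in LPS, and its fall of 3.52 ± 0.32 on the log2 scale (11.5-fold, edgeR adjusted p = 1.89e-05) was the largest of the 44 genes, on counts of 12 and 6 in LPS against 124 and 134 in control. Rrm2, the regulated subunit of ribonucleotide reductase, had 62.2 and 58.1 CPM in LPS + VD3, 43.5 and 48.1 CPM in LPS and 132 and 129 CPM in control. Rrm1, the large subunit of the same enzyme, had 86.9 and 90.2 CPM in LPS + VD3, 65.1 and 71.2 CPM in LPS and 177 and 182 CPM in control. The 2 subunits changed by -1.51 ± 0.16 and -1.40 ± 0.15, and in both the 3 groups did not overlap. Tyms, thymidylate synthase, had 42.9 and 42.0 CPM in LPS + VD3, 50.9 and 43.5 CPM in LPS and 48.7 and 42.3 CPM in control. Its LPS and control libraries overlapped and its change was 0.05 ± 0.17 (edgeR adjusted p = 0.845). Tyms has a named pseudogene, Tyms-ps.

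The 2 S-phase regulators parted. Uhrf1, which carries DNA methylation through replication, had 43.3 and 39.4 CPM in LPS + VD3, 36.5 and 28.5 CPM in LPS and 97.3 and 98.9 CPM in control, with no overlap between groups, and changed by -1.59 ± 0.18 after LPS (edgeR adjusted p = 8.3e-05). E2f1, a transcription factor that drives S-phase genes, had 46.9 and 154 CPM in LPS + VD3, 40.8 and 46.3 CPM in LPS and 35.3 and 36.4 CPM in control. It was the only one of the 44 with both LPS libraries above both control libraries, a pattern of 31.6% of all genes, and its change of 0.28 ± 0.42 did not pass (adjusted p = 0.651). With scaling by library size alone this value was -0.01, as that scaling moved the median of all genes by -0.295.

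Of the 5 cyclins and kinases of G1 and the G1/S transition, 3 fell. Ccnd1, cyclin D1, had 3.98 and 2.39 CPM in LPS + VD3, 2.46 and 3.03 CPM in LPS and 16.8 and 17.3 CPM in control. The treated groups overlapped each other and lay far below control, with a log2 fold change after LPS of -2.62 ± 0.30 (edgeR adjusted p = 9.72e-05), and 23.4% of its exon length overlaps a neighbouring gene. Ccne2, cyclin E2, had 21.1 and 27.7 CPM in LPS + VD3, 8.82 and 10.1 CPM in LPS and 28.4 and 35.3 CPM in control, with LPS the lowest, 3.36-fold below control (-1.75 ± 0.23, adjusted p = 0.000279). Cdk2, the kinase partner of the E cyclins, had 26.2 and 24.1 CPM in LPS + VD3, 22.8 and 19.8 CPM in LPS and 42.5 and 37.8 CPM in control (-0.91 ± 0.19 after LPS), a call lost without control 1. The other E cyclin Ccne1 had 13.2 and 11.5 CPM in LPS + VD3, 14.6 and 10.3 CPM in LPS and 19.9 and 18.6 CPM in control, and did not pass (-0.63 ± 0.23, adjusted p = 0.0647). Cdk4, the kinase of the D cyclins, had 40.2 and 47.4 CPM in LPS + VD3, 54.2 and 39.0 CPM in LPS and 61.0 and 61.5 CPM in control, and did not pass either (-0.39 ± 0.19, adjusted p = 0.153). In both genes all treated libraries lay below control, at a smaller distance than in Ccnd1.

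Of the 10 genes of G2 and mitosis, 9 fell. Top2a, the topoisomerase that untangles sister chromatids, had 139.6 and 158 CPM in LPS + VD3, 85.0 and 103 CPM in LPS and 242 and 253 CPM in control. Ccna2, cyclin A2, had 36.0 and 42.2 CPM in LPS + VD3, 31.2 and 25.1 CPM in LPS and 78.5 and 81.1 CPM in control. Bub1, a kinase of the spindle checkpoint, had 16.1 and 16.5 CPM in LPS + VD3, 10.3 and 14.0 CPM in LPS and 37.3 and 39.9 CPM in control. In each of these 3 genes LPS was the lowest group, LPS + VD3 lay between and no groups overlapped. The log2 fold change after LPS was -1.40 ± 0.16 for Top2a, -1.50 ± 0.18 for Ccna2 and -1.67 ± 0.21 for Bub1 (edgeR adjusted p from 9.71e-05 to 0.000184). The mitotic kinases Cdk1, Aurka, Aurkb and Plk1 and the B cyclins Ccnb1 and Ccnb2 fell by between 0.72 and 1.47. Of these calls, Aurka was lost in 8 of 16 alternatives, Ccnb1 and Plk1 without either control library and Ccnb2 without control 1. Mki67, the gene of the proliferation antigen Ki-67, had 489.9 and 683 CPM in LPS + VD3, 387 and 495 CPM in LPS and 631 and 641 CPM in control. Both LPS libraries were below control, and it did not pass (-0.53 ± 0.19, edgeR adjusted p = 0.0576), but it was called lower in 7 of 16 alternatives, among them without LPS 2 (-0.72, 0.00392) and with GC offsets (-0.57, 0.00952).

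**Figure D2:**
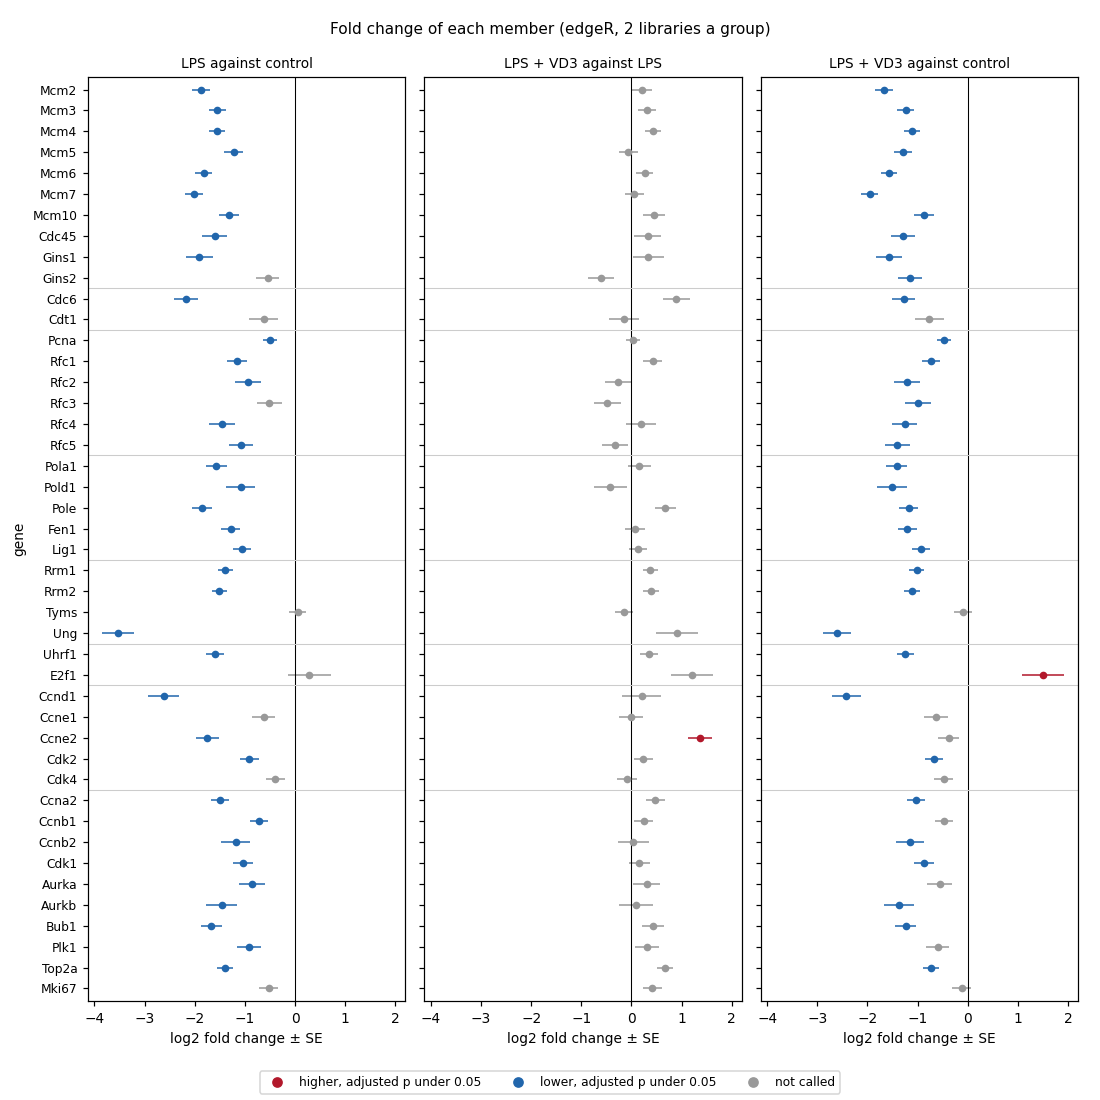
log2 fold change ± SE (edgeR) of each of the 44 genes for LPS over control (left), LPS + VD3 over LPS (middle) and LPS + VD3 over control (right); blue points were lower and red points higher at adjusted p under 0.05, and grey points did not pass. The left panel holds 36 blue points, the middle panel 1 red point (Ccne2) and the right panel 34 blue points and 1 red point (E2f1).

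The comparison of LPS + VD3 with LPS asked whether VD3 altered these genes in cells that also received LPS. Of the 44 genes 1, Ccne2, was higher and none was lower by edgeR at adjusted p under 0.05, against 3.83% of all genes called, 2.25% higher and 1.59% lower. At unadjusted p under 0.05 there were 10 of the 44 in either direction, against 22.0% of all genes (2364 of 10724), and DESeq2 called 2 higher. The fold change was above 0 in 34 genes and below 0 in 10, with a median of 0.24, against -0.0025 over all genes. Both LPS + VD3 libraries lay above both LPS libraries in 20 genes, against 24.6% of all genes, and below both in 3, Gins2, Rfc3 and Tyms, against 23.5% of all. Summed over the 44 genes, expression was 1924 and 2213 CPM in LPS + VD3, against 1651 and 1686 CPM in LPS. Without LPS 1 the counts were 1 higher and 0 lower, while 4.41% of all genes were called. Without LPS 2 they were 9 higher and 2 lower, while 33.3% of all genes were called.

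Ccne2 had 21.1 and 27.7 CPM in LPS + VD3, against 8.82 and 10.1 CPM in LPS, a log2 fold change of 1.36 ± 0.24 (2.58-fold, edgeR adjusted p = 0.0122). The LPS + VD3 libraries lay above LPS and below the 28.4 and 35.3 CPM of control. Ccne2 has the lowest GC content of the 44 genes, 35.5%, and with GC offsets its change was 0.85 (adjusted p = 0.0563). The call was also lost with no filter beyond 1 count (0.0616), without LPS + VD3 1 (0.0562) and without LPS + VD3 2 (0.19). Next by p was Top2a, at 0.66 ± 0.16 (edgeR adjusted p = 0.0512). It passed with DESeq2 (0.0251) and without LPS 2 (0.00121), and its change was 0.41 with GC offsets (0.0594). Cdc6 was at 0.89 ± 0.27 (edgeR adjusted p = 0.105), Pole at 0.68 ± 0.21 (0.114) and Ung at 0.91 ± 0.42 (0.233), each with both LPS + VD3 libraries above both LPS libraries. In the clamp and loader list the median was -0.12, and in the G2 and mitosis list it was 0.31 with all 10 values above 0.

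Over the 44 genes the fold change against LPS ran with GC content, at Spearman's rho of -0.381, against -0.50 over the 10650 genes with a GC value. These are correlations across genes within the same libraries and carry no p. The median GC content was 49.9% for the 44 genes and 50.5% for all genes tested. With GC offsets the median fold change of the 44 was 0.17. The part of GC content in these differences was not tested beyond these offsets.

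**Figure D3:**
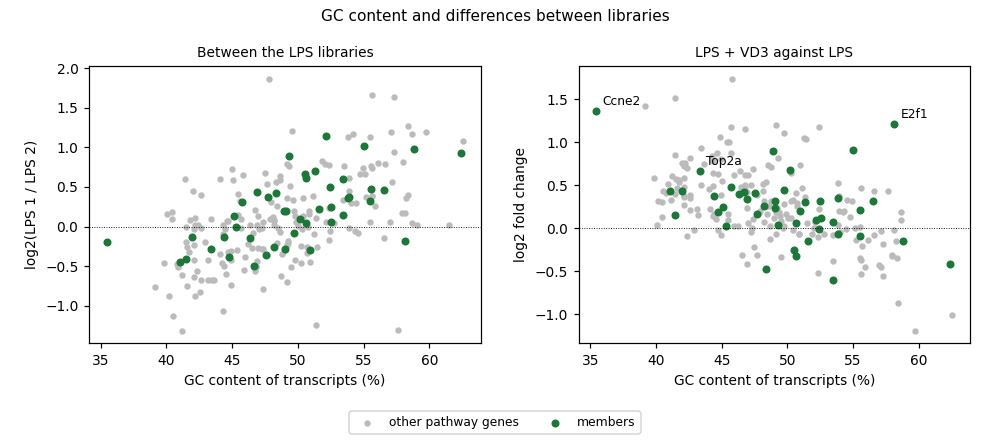
GC content of the transcripts (%) against log2 of LPS 1 over LPS 2 (left) and against the log2 fold change of LPS + VD3 over LPS (right), for the 44 genes (green) and other replication and division genes (grey). Values rise with GC content on the left (rho 0.629 for the 44 genes) and decline on the right (rho -0.381); Ccne2 and E2f1 have the largest fold changes of the 44 at GC contents of 35.5% and 58.1%.

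LPS + VD3 was also compared with control. This comparison uses the same control libraries as that of LPS, so the 2 are not independent and share the unknown time of the control in culture. Of the 44 genes 34 were lower and 1 was higher (edgeR, adjusted p under 0.05), against 35% of all genes called, 17.3% lower and 17.7% higher, and 26 were lower by 2-fold or more, against 10.9% of all genes. The median log2 fold change was -1.13. All 10 helicase genes, all 6 clamp and loader genes and all 5 genes of polymerases and Okazaki fragments were lower, and 6 of 10 genes of G2 and mitosis. Ung was at -2.61 ± 0.28, Ccnd1 at -2.42 ± 0.29, Mcm7 at -1.96 ± 0.18 and Mcm2 at -1.67 ± 0.18. Ccne2 was at -0.38 ± 0.21 (edgeR adjusted p = 0.189) and Mki67 at -0.12 ± 0.19 (0.659), and neither passed. The others that did not pass were Cdt1, Tyms, Ccne1, Cdk4, Ccnb1, Aurka and Plk1.

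E2f1 was the 1 gene of the set that was higher than control, and its value rested on 1 library. It had 224 and 776 counts in LPS + VD3, against 206 and 227 counts in control. The second LPS + VD3 library was 3.29 times the first, while the other 41 members with a mean count of at least 50 lay between 0.673 and 1.43 times. By this ratio E2f1 ranked 6 among 8087 genes with such counts. Its log2 fold change against control was 1.49 ± 0.42 (edgeR adjusted p = 0.0193), and without LPS + VD3 2 it was 0.36 ± 0.21 (0.281). The call was also lost without control 1 (0.0633) or control 2 (0.0551), with DESeq2 (0.084), with no filter beyond 1 count (0.0791) and in the deposited log2 table (0.102). Against LPS, E2f1 changed by 1.21 ± 0.42 (edgeR adjusted p = 0.139), and leaving out LPS + VD3 2 gave 0.10 ± 0.21 (0.877). It passed without LPS + VD3 1 (1.83, 0.0136) and without LPS 2 (1.31, 0.0413).

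**Figure D4:**
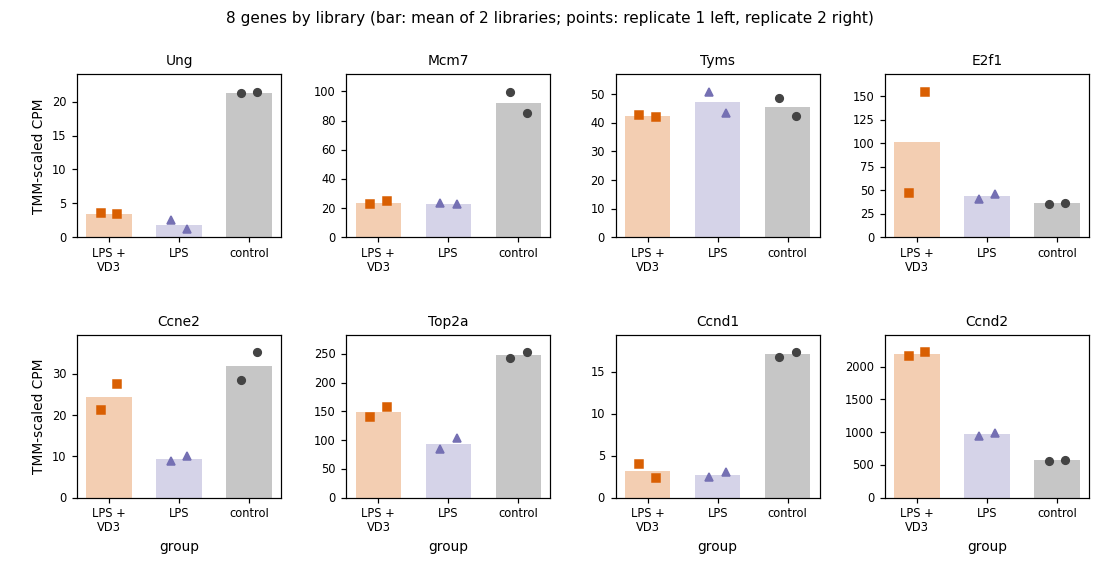
TMM-scaled CPM of 8 genes in LPS + VD3, LPS and control; bars are means of 2 libraries and points are the libraries. Ung, Mcm7 and Ccnd1 are low in both treated groups, Tyms overlaps between LPS and control, Ccne2 and Top2a lie between LPS and control in LPS + VD3, E2f1 is high in LPS + VD3 2 alone, and Ccnd2 is highest in LPS + VD3.

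Other genes of the same pathways were taken from 9 lists of 188 genes, of which 187 were in the table and 184 were tested. After LPS, 119 fell and 11 rose, against 16.2% of all genes tested called lower and 15.7% called higher. The same shares of all genes apply to each list below. The median change of the 184 genes was -1.04 on the log2 scale. The shares falling differed by list: 19 of 22 genes of the replication stress checkpoint and recombination and 34 of 41 of the kinetochore, spindle and cytokinesis fell, against 7 of 16 genes of origin recognition and helicase loading. Among CDK inhibitors and antiproliferative genes, 5 of 15 tested fell and 4 rose, with a median of -0.02. The differences between lists were not tested.

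Of the lowered genes, Dna2, a nuclease and helicase of the fork, had 6.07 and 3.98 CPM in LPS + VD3, 4.93 and 3.84 CPM in LPS and 46.3 and 49.4 CPM in control. E2f2, an activator E2F, had 6.28 and 3.58 CPM in LPS + VD3, 4.93 and 5.46 CPM in LPS and 41.8 and 37.2 CPM in control. Both stayed low in LPS + VD3, and they changed by -3.44 ± 0.25 and -2.92 ± 0.26 after LPS (edgeR adjusted p = 4.61e-06 and 1.94e-05). Tfdp2, a partner of E2F proteins, was at -2.88 ± 0.33 and Cdc25b, the phosphatase that activates Cdk1, at -2.55 ± 0.31. Wee1, the kinase that opposes Cdc25 phosphatases, was at -1.08 ± 0.22. Topbp1, which helps origins fire, was at -1.42 ± 0.18 and Gmnn, the inhibitor of Cdt1, at -1.71 ± 0.22. The folate cycle enzymes Mthfd1 and Shmt1 were at -1.22 ± 0.17 and -1.85 ± 0.27. The cytokinesis genes Anln and Kif23 were at -2.11 ± 0.20 and -2.12 ± 0.22, and the condensin subunits Ncapg2 and Ncapd2 at -1.91 ± 0.20 and -1.89 ± 0.20. The checkpoint kinase Chek2 was at -2.06 ± 0.23, the recombination factor Rad51ap1 at -2.27 ± 0.26 and the CDK inhibitor Cdkn2c at -2.39 ± 0.40.

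Of the 184 other genes tested, the 11 that rose after LPS are named here. Over all genes tested, 15.7% were called higher. E2f5, an E2F of the repressor class, had 11.1 and 8.36 CPM in LPS + VD3, 11.7 and 12.3 CPM in LPS and 3.43 and 3.53 CPM in control, a change of 1.78 ± 0.28 after LPS (edgeR adjusted p = 0.000789). Pttg1, securin, rose by 1.34 ± 0.25 and the antiproliferative gene Btg1 by 1.11 ± 0.16. Top1, which relaxes DNA, rose by 0.87 ± 0.22, Mdm2, the ligase that degrades p53, by 0.84 ± 0.15, the mitochondrial folate enzyme Mthfd2 by 0.60 ± 0.19, the kinase Cdk6 by 0.51 ± 0.17 and the spindle checkpoint gene Bub1b by 0.49 ± 0.14. Top1, Mthfd2, Cdk6 and Bub1b lost their calls in 3 to 9 of 16 alternatives. Ccnd2 is given below, and Btg2 and Ccng2, named to complete the count, were the remaining genes.

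The D cyclins moved apart. Ccnd2, cyclin D2, had 2164 and 2220 CPM in LPS + VD3, 946 and 987 CPM in LPS and 555 and 581 CPM in control, with no overlap between the groups. It rose by 0.77 ± 0.14 after LPS (edgeR adjusted p = 0.00178, lost without control 1) and by a further 1.18 ± 0.14 in LPS + VD3 against LPS (adjusted p = 0.00152), a call that held in all 16 alternatives. Ccnd1, at most 3.98 CPM in any treated library, fell as given above. Ccnd3, cyclin D3, named after its values were seen, had 12.6 and 11.5 CPM in LPS + VD3, 38.4 and 16.8 CPM in LPS and 65.1 and 52.2 CPM in control. Its LPS libraries lay far apart, with a change of -1.09 ± 0.31 after LPS (edgeR adjusted p = 0.022, a call lost in 5 of 16 alternatives) and of -1.19 ± 0.35 in LPS + VD3 against LPS (0.0988).

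In LPS + VD3 against LPS, 47 of the 184 other genes had an unadjusted p under 0.05 in edgeR. Over all genes that share was the 22.0% given above. At adjusted p under 0.05, DESeq2 called 1 lower. By edgeR 9 of the 184 were higher and none was lower, against 2.25% of all genes called higher and 1.59% lower. Besides Ccnd2 they were Bard1, a partner of Brca1 in recombination, at 1.74 ± 0.32, the cohesin acetyltransferase Esco2 at 1.52 ± 0.32, the kinesin Kif20b at 1.42 ± 0.28, the antiproliferative gene Tob1 at 1.18 ± 0.21, the checkpoint adaptor Clspn at 1.11 ± 0.20, the kinetochore protein Cenpf at 1.06 ± 0.22, the fork protein Wdhd1 at 1.00 ± 0.23 and the dNTP hydrolase Samhd1 at 0.73 ± 0.14 (edgeR adjusted p from 0.0131 to 0.0429). These 8 genes were all lower in LPS than in control, by between 0.56 and 2.53 on the log2 scale, and the 2 comparisons share the LPS libraries. In each of the 8 both LPS + VD3 libraries lay above both LPS libraries, as in 24.6% of all genes. The genes were called from these same libraries, so this order adds no support to the calls. Bard1, for example, had 9.63 and 9.55 CPM in LPS + VD3, 3.49 and 2.23 CPM in LPS and 13.4 and 15.4 CPM in control. All 8 calls were lost without LPS + VD3 2, and those of all but Tob1 also without LPS + VD3 1. Their transcripts had a GC content between 39.2% and 49.8%, below the median of all genes tested, and Ccnd2 one of 52.4%.

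**Figure D5:**
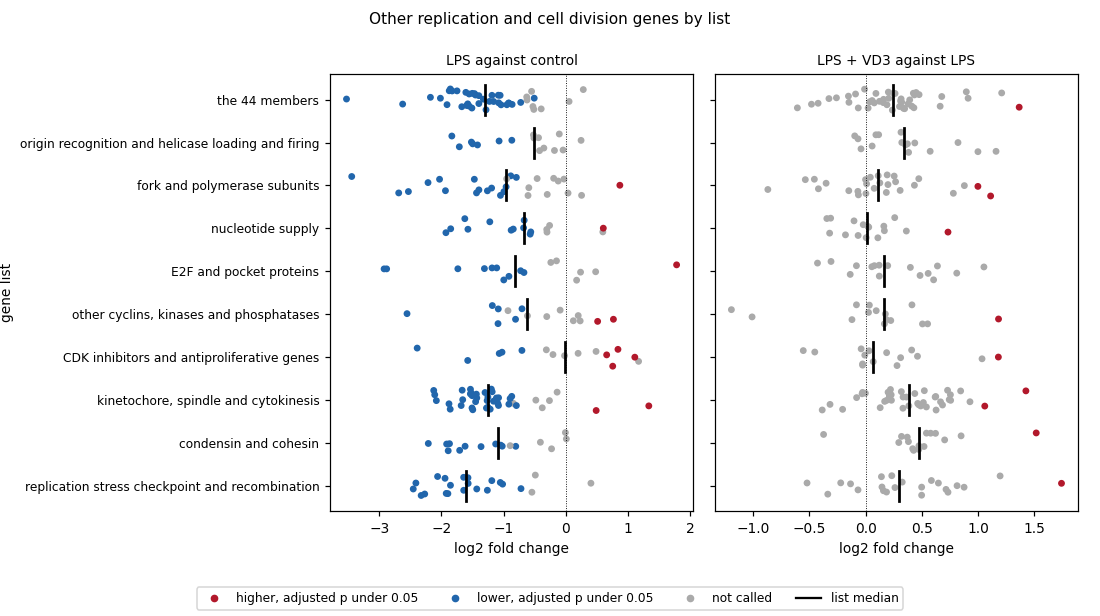
log2 fold change of the 44 genes and of each list of other replication and division genes in LPS against control (left) and LPS + VD3 against LPS (right); red points were higher and blue points lower at adjusted p under 0.05, grey points did not pass, and bars are list medians. On the left the medians lie between -1.61 and -0.02, and on the right between 0.01 and 0.47.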

How the data were processed

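Per the labels' protocols, the RNeasy Micro kit was used for RNA and the KAPA mRNA HyperPrep kit for libraries. The deposited counts are whole numbers for each gene in each library. The tools TopHat2 and edgeR and the build mm10 are named in the submitters' processing notes. No source used here gives the counting program, its strand setting, its annotation or its treatment of reads with several matches, so counts of overlapping genes and of genes with close copies are uncertain: exons of 16 of the 44 genes overlap another gene, in 3 of them over 20% or more of their length. A second deposited table holds log2 values of 10343 genes. Of these, 10327 matched the counts, and their values equal log2(CPM + 1) within 0.00423. It was used in 1 alternative and holds 42 of the 44 genes.

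The test was that of edgeR 4.0.16 in R 4.3.3. Genes passing filterByExpr (minimum count 10, minimum total 15) were scaled by TMM, and a quasi-likelihood model of 3 group means was fitted to all 6 libraries. Contrasts were adjusted by Benjamini-Hochberg over all 10724 genes and called at 0.05, two-sided. The SE is the absolute log2 fold change over the root of the F statistic. The fit was tested on simulated data, whose outcome is not given here and adds no support to the calls. Counts of the 44 genes per library lay between 6 and 4002, and 7 genes had fewer than 30 counts in some library, which limits their precision. The 16 alternatives changed scaling, tool (DESeq2 1.42.0 and limma 3.58.1), filter, libraries, block and GC offsets, or left out 1 library each.

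Gene models, lengths and GC content came from GENCODE M21 transcripts on GRCm38, the same assembly as mm10, and promoters from RefSeq. Replicate numbers are shared between groups, and the LPS + VD3 libraries are labelled with LPS numbers, but the labels do not state that they pair libraries. The genes, lists and tests were chosen with earlier results of these data known. Per role, values by library are given for up to 3 genes with the smallest p in LPS against control, for genes called higher or called in LPS + VD3 against LPS, and for 5 genes called in no comparison. Per list of other genes, up to 2 genes a direction with the smallest p in LPS against control are named, with every gene called in LPS + VD3 against LPS. Promoters are printed for 2 genes of DNA replication and 2 of mitosis that hold the motif, by smallest p.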

Additional observations from a re-analysis of the deposited data

How the results depend on the processing

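The calls of 28 of the 36 genes lower in LPS than in control held in all 16 alternatives. So did 23 of the 35 calls in LPS + VD3 against control, and no call of the 44 genes changed sign. Of the 44, 6 genes without a call gained one in at least 1 alternative in LPS against control (Gins2, Cdt1, Rfc3, Ccne1, Cdk4 and Mki67), 12 in LPS + VD3 against LPS and 7 in LPS + VD3 against control. The call in LPS + VD3 against LPS, Ccne2, was lost in 4 alternatives and has no value in the deposited log2 table. In LPS + VD3 against LPS, the count of all genes called was 411, and 169 without a filter beyond 1 count, 258 when only the compared libraries were fitted, 1152 with the replicate block, 770 with GC offsets and 1292 with the replicate block and GC offsets. The count of the 44 genes higher was 1, and 2 with DESeq2, 0 with no filter, 3 with the replicate block, 0 with GC offsets, 5 with the replicate block and GC offsets and 0 in the deposited log2 table. The count of other pathway genes lower was 0, and 1 with DESeq2, 1 with the replicate block and 2 with the replicate block and GC offsets. In LPS + VD3 against control, 1 of the 44 genes was higher, and 0 with DESeq2, with no filter and in the log2 table. The cause of these differences was not tested.

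Leaving out each library in turn, the count of all genes called lay between 1940 and 4829 in LPS against control (1975 without control 1, 1940 without control 2), between 55 and 3670 in LPS + VD3 against LPS (3670 without LPS 2, 94 and 55 without LPS + VD3 1 and 2, 246 and 247 without control 1 and 2) and between 2126 and 5410 in LPS + VD3 against control (2126 and 2144 without control 1 and 2, 2135 without LPS + VD3 2). Of the 44 genes, 28 to 41 were lower and 0 to 0 higher in LPS against control, 0 to 2 lower and 0 to 9 higher in LPS + VD3 against LPS, and 26 to 40 lower and 0 to 1 higher in LPS + VD3 against control. Other pathway genes lower were 86 to 127, 0 to 9 and 54 to 121 in the same order of comparisons (59, 54 and 57 in the last without control 1, control 2 and LPS + VD3 1). Such a fit assumes that the lone library varies like the other groups. Scaling by library size alone moved the median of all genes by -0.295 in LPS against control and -0.327 in LPS + VD3 against control, and the share of higher calls was then 26.2% and 25.9% of all calls, against 49.2% and 50.5%. Deviations of libraries with the same number correlated at 0.172 (control and LPS), 0.0894 (control and LPS + VD3) and 0.196 (LPS and LPS + VD3). The labels number the LPS + VD3 libraries after LPS libraries without saying what the number means, and 2 pairs a comparison do not settle it, so the block is an alternative here. With the block, Top2a (edgeR adjusted p = 0.0125) and E2f1 (1.07, 0.04) passed in LPS + VD3 against LPS, and with GC offsets as well they had 0.0341 and 0.00549 (1.40 for E2f1). Mki67 passed in LPS against control, at 0.0108 and with GC offsets as well at 0.00158.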

Other observations

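The genes next to E2f1 had similar levels in both LPS + VD3 libraries. On GRCm38, E2f1 lies on chromosome 2 at 154559407 to 154569892 on the minus strand, with no exon overlap with another gene. The genes within 100 kb that passed a cut on mean count over the libraries were Cbfa2t2, Pxmp4, Zfp341 and Chmp4b. Their ratio of LPS + VD3 2 to LPS + VD3 1 was 0.855 for Cbfa2t2, 0.913 for Pxmp4, 0.951 for Zfp341 and 1.18 for Chmp4b, against 3.29 for E2f1. Pxmp4, the nearest of them upstream of E2f1, had 5.23 and 4.78 CPM in LPS + VD3, 6.98 and 5.26 CPM in LPS and 16.3 and 13.0 CPM in control.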
